A study of Homo sapiens with 15 samples.

Results

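The E2F transcription factors, the pocket proteins of the RB family, FOXM1 and MYBL2 decide when a cell switches on the genes of DNA replication and of mitosis. The transcripts of 10 of these regulators were followed in MCF-10A cells in which p63 had been knocked down or overexpressed: E2F1, E2F2, E2F3, E2F5, E2F8, RB1, RBL1, RBL2, FOXM1 and MYBL2. They were chosen by name, with earlier results of these data known, from 11963 genes on the array, and all 10 were measured. A gene was read from the probe set that is annotated to it alone and has the highest mean over all arrays; 5 of the regulators had 1 such probe set and 5 had more.

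MCF-10A is an established, non-tumorigenic human mammary epithelial line, and p63 is a transcription factor of the p53 family found in basal epithelia. All 15 arrays came from cells taken 48 hours after infection with a retrovirus or an adenovirus, and the labels do not tell which virus served which arm, so every control was an infected culture as well. The knockdown arm held 2 arrays each of an shRNA vector control, of an shRNA aimed at the DNA-binding domain of every p63 isoform (shDBD) and of an shRNA aimed at the isoforms with the transactivating domain (shTA). The overexpression arm held 3 arrays each of a vector control, of cells given ΔNp63α, which lacks that N-terminal domain, and of cells given TAp63γ, which has it. Each hairpin is a lone sequence, so its off-target effects and those of p63 loss cannot be told apart. The labels call the replicates biological without saying whether each was infected on its own; the p-values therefore speak of the spread among these arrays, which may be technical.

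As background, E2F1, E2F2 and E2F3 are activators of G1/S genes, and the pocket proteins RB1, RBL1 (p107) and RBL2 (p130) bind E2F proteins and hold these genes off. Cyclin-dependent kinases lift that block by phosphorylating the pocket proteins. E2F5 is a repressor partner of RBL1 and RBL2, and E2F8 is an atypical E2F that represses without a pocket protein. Later in the cycle MYBL2 (B-MYB) and then FOXM1 join the MuvB complex at cell cycle homology regions (CHR) and switch on the genes of G2 and mitosis. In resting cells MuvB instead joins E2F and RBL1 or RBL2 in the repressive DREAM complex. Several of these regulators are themselves E2F targets.

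To show the letters that E2F proteins and MuvB are known to prefer, promoters were searched. RefSeq sequences (GRCh38.p14) were at hand for 7 of the 10 genes, and the 250 bases before each start were searched on both strands for the E2F words TTTCCCGC, TTTCGCGC, TTTGCCGC and TTTGGCGC and for the CHR words TTTGAA and TTCGAA. An E2F word stood in 4 of these 7 genes (E2F1, E2F2, E2F3 and RBL1), against 3.4% of all 27305 genes with a listed promoter. The last 100 bases before the start are shown 5′ to 3′ for these 4 and for MYBL2, which moved most with FOXM1, with E2F and CHR words in capitals.
E2F1 (chr20:33686386-33686485, minus strand): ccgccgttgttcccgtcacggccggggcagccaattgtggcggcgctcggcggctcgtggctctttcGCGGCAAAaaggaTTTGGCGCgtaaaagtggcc
E2F2 (chr1:23531234-23531333, minus strand): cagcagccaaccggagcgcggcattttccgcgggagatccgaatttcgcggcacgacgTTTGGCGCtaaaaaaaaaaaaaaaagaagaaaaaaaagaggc
E2F3 (chr6:20401779-20401878, plus strand): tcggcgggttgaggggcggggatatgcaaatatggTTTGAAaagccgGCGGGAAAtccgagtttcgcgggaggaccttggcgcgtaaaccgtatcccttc
RBL1 (chr20:37095998-37096097, minus strand): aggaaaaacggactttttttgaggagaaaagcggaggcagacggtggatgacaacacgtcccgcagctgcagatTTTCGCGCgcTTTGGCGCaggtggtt
MYBL2 (chr20:43667014-43667113, plus strand): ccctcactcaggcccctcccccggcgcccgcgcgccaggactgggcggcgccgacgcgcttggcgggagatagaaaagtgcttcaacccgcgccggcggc

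E2F1 and RBL1 each carry 2 E2F words, E2F2 and E2F3 carry 1, and the E2F3 window also holds the CHR word TTTGAA. In E2F1 the words start 33 and 20 bases before the start of transcription and in RBL1 26 and 16. None of the searched words is in the 250 bases of MYBL2, of RBL2 (2 promoters listed), of the listed RB1 promoter or of a second E2F3 promoter, which says only that these letters are not in those windows. For RB1 the window was chr13:48476200-48476449, and starts elsewhere in the gene were not searched. A word is a match of letters and not a shown binding site. Only the exact words were searched, so a site with other letters, in MYBL2 or elsewhere, would be missed. Over the gene lists described further on, E2F words stood in 13 of 30 E2F target genes of G1/S with a promoter and in 3 of 30 FOXM1 and MYBL2 target genes of G2/M, while CHR words stood in 3 of 30 and 19 of 30 (17.2% of all genes).

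Values are RMA expression levels on the log2 scale, and differences are log2 fold changes ± SE from limma. The SE and p of a gene rest on its spread in both arms together. The median within-group SD of all genes was 0.0821 in the knockdown arm and 0.113 in the overexpression arm. Of the regulators, only E2F3 and RBL1 spread more in the knockdown arm. The adjusted p-values come from limma with Benjamini-Hochberg adjustment over all 11963 genes, and a gene is called at 0.05. Each group has n = 2 (knockdown) or n = 3 (overexpression), and treatments are compared only within an arm. Replicate arrays correlated over genes at 0.9925 to 0.998. All 7 measured basal markers and 6 of 7 epithelial markers (not KRT19) lay above the 20th percentile of genes in each arm. Of markers of other cells, 5 of 8 luminal, 6 of 8 fibroblast and 3 of 6 immune genes also passed this loose bound in each arm, and 4 and 2 of 6 endothelial genes did so in the knockdown and overexpression arm. E2F2, E2F8 and RBL1 in the knockdown arm and E2F8 in the overexpression arm did not lie above that percentile in all arrays, so their levels there were not shown to be above background.

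FOXM1 and MYBL2 had the largest changes of the 10 regulators, and these came with shDBD. FOXM1, the forkhead activator of mitotic genes (probe set 202580_x_at, its only one, of a type that can cross-hybridize), read 9.35 and 9.32 with the shRNA vector, 7.40 and 7.28 with shDBD, and 9.00 and 8.97 with shTA. The shDBD arrays lay far below the other 4, and the shTA arrays slightly below the vector. FOXM1 fell by 1.99 ± 0.16 with shDBD, a 3.99-fold difference (adjusted p = 2.86e-07). MYBL2, the MYB protein that recruits to the same promoters (201710_at), read 10.08 and 9.99 with the vector, 8.49 and 8.51 with shDBD, and 9.68 in both shTA arrays. It fell by 1.54 ± 0.12 with shDBD, 2.9-fold (adjusted p = 2.86e-07). These are bulk samples, in which fewer cells with the transcript and less transcript per cell cannot be told apart.

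With shTA the same 2 genes stood 0.35 and 0.36 below their vector without overlap of arrays, and neither passed (FOXM1 −0.35 ± 0.16, adjusted p = 0.355; MYBL2 −0.36 ± 0.12, adjusted p = 0.171). Arrays did not overlap for 50.7% of all genes in this comparison. Both genes were called when the knockdown arm was fitted alone (adjusted p = 0.0178 and 0.0105). Their within-group SDs were 0.0501 and 0.0391 in the knockdown arm and 0.217 and 0.149 in the overexpression arm. The main fit pools both arms. Between the hairpins the difference was large: FOXM1 was lower with shDBD than with shTA by 1.65 ± 0.16 on the log2 scale (log2 fold change −1.65, adjusted p = 2.76e-06) and MYBL2 by 1.18 ± 0.12 (log2 fold change −1.18, adjusted p = 5.54e-06). The order of levels was thus vector, shTA, shDBD for both genes, and only the step down to shDBD passed the test. Comparisons with the vector share its 2 arrays.

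FOXM1 in the overexpression arm read 7.81, 8.16 and 7.96 with the vector, 8.39, 8.29 and 7.93 with ΔNp63α, and 7.89, 7.44 and 7.69 with TAp63γ. The ranges of each isoform overlapped that of the vector, and the isoforms did not overlap each other. FOXM1 was higher with ΔNp63α than with TAp63γ by 0.53 ± 0.13 (1.44-fold, adjusted p = 0.00393), while neither isoform passed against the vector (0.22 ± 0.13, adjusted p = 0.239, and −0.31 ± 0.13, adjusted p = 0.0692). The TAp63γ value passed without overexpression vector replicate 1 (−0.39, adjusted p = 0.0387), TAp63γ replicate 1 (−0.42, adjusted p = 0.0223) or ΔNp63α replicate 3 (adjusted p = 0.0282) and with cyclic loess normalization (−0.30, adjusted p = 0.0479), and the ΔNp63α value without ΔNp63α replicate 3 (0.36, adjusted p = 0.0352). The order was ΔNp63α, vector, TAp63γ, and neighbours in it did not pass after adjustment, although the 95% interval of TAp63γ against the vector (−0.58 to −0.03) excluded 0. MYBL2 read 8.05, 8.24 and 8.13 with the vector, 8.49, 8.44 and 8.15 with ΔNp63α, and 8.41, 8.10 and 8.27 with TAp63γ. All 3 groups overlapped. No difference of MYBL2 passed: 0.22 ± 0.10 for ΔNp63α (adjusted p = 0.117), 0.12 ± 0.10 for TAp63γ (adjusted p = 0.364) and 0.10 between the isoforms, with a 95% interval of −0.11 to 0.31. The ΔNp63α value of MYBL2 passed without ΔNp63α replicate 3 (0.33, adjusted p = 0.0141) and with cyclic loess normalization (0.29, adjusted p = 0.0211).

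**Figure D1:**
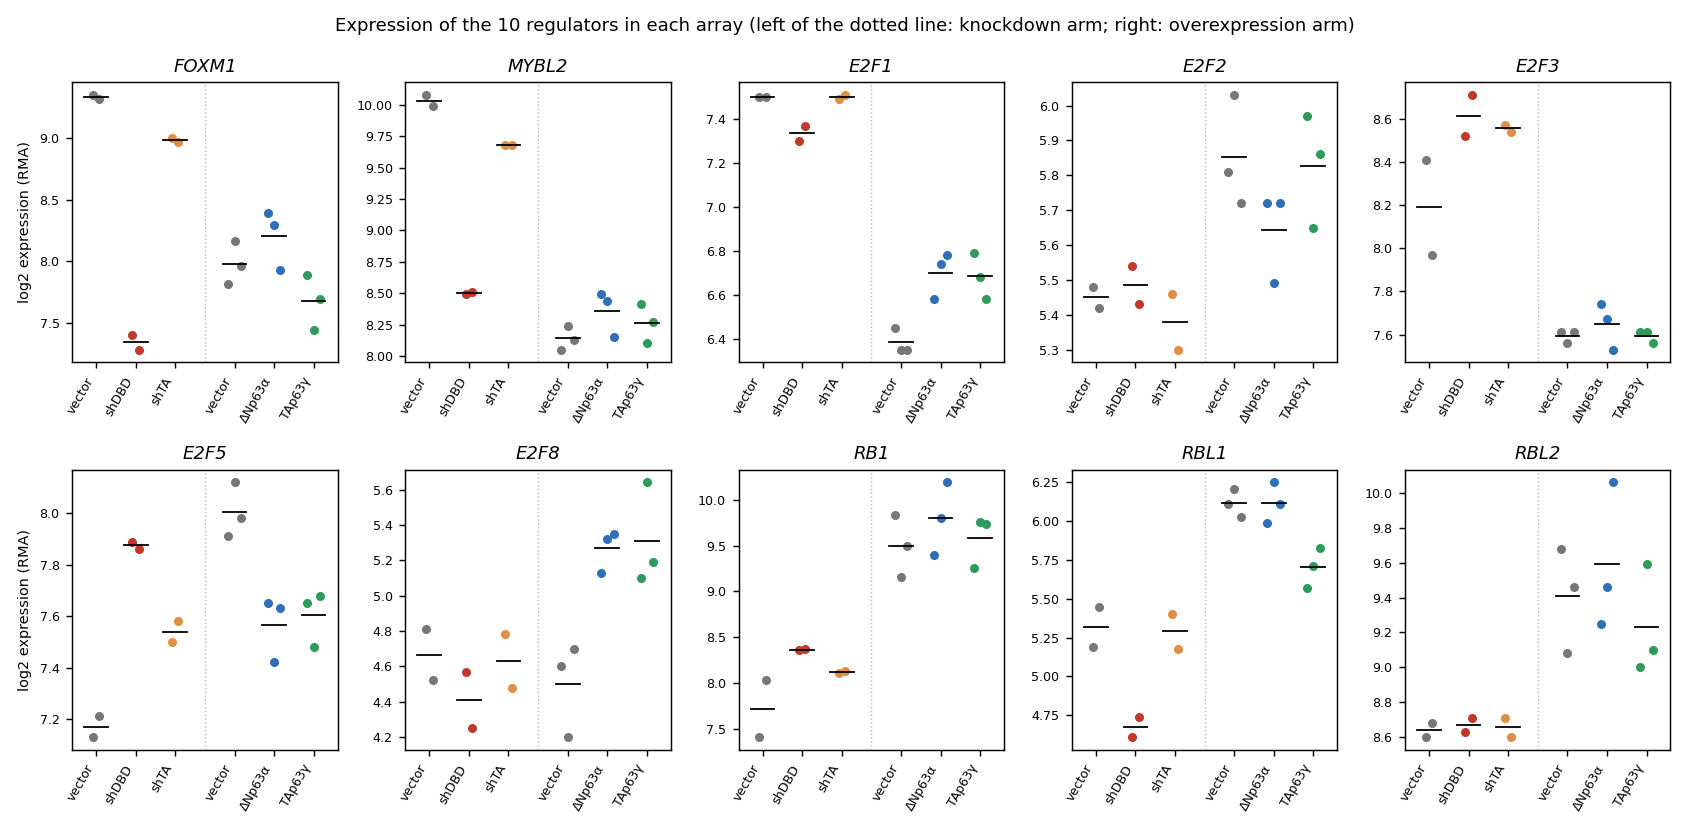
Log2 expression (RMA) of each regulator in every array, by group; points are arrays (2 per group left of the dotted line, 3 per group right of it) and bars are group means, and each panel has its own y axis, which does not start at 0. The shDBD arrays of FOXM1 (7.40 and 7.28) and MYBL2 (8.49 and 8.51) sit far below the other knockdown arrays, and RB1 and RBL2 scatter widely within the groups of the overexpression arm.

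Of the activator E2Fs, E2F1 was called with either isoform, E2F3 with shDBD and E2F2 in no comparison. E2F1, the best known activator of S phase genes (204947_at), read 7.50 in both vector arrays, 7.30 and 7.37 with shDBD, and 7.49 and 7.51 with shTA. The shDBD arrays were the lowest, but the difference of −0.16 ± 0.091 did not pass (adjusted p = 0.26). The other E2F1 probe set (2028_s_at) gave −0.35 ± 0.089 there and was called over all probe sets (adjusted p = 0.0111), as was the mean of both (−0.26, adjusted p = 0.0221). With shTA the difference was 0.00 ± 0.091 (95% interval −0.19 to 0.20), and between the hairpins it was −0.16 ± 0.091 (adjusted p = 0.275).

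E2F1 was higher with either isoform. It read 6.45, 6.35 and 6.35 with the vector, 6.58, 6.74 and 6.78 with ΔNp63α, and 6.79, 6.68 and 6.58 with TAp63γ, so that no treated array reached down to the vector. It rose by 0.32 ± 0.074 with ΔNp63α (1.25-fold, adjusted p = 0.00399) and by 0.30 ± 0.074 with TAp63γ (1.23-fold, adjusted p = 0.00357). The isoforms differed by 0.02, with a 95% interval of −0.14 to 0.18. These comparisons share the 3 vector arrays.

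E2F3, an activator with 2 listed promoters (203692_s_at), read 8.41 and 7.97 with the shRNA vector, 8.52 and 8.71 with shDBD, and 8.57 and 8.54 with shTA. Both vector arrays were lower than all treated ones and lay far from each other. E2F3 rose by 0.43 ± 0.12 with shDBD (adjusted p = 0.0203), a call that did not survive leaving out replicate 2 of the vector (0.20, adjusted p = 0.306) or of shDBD (0.33, adjusted p = 0.182). With shTA it stood 0.37 ± 0.12 above the vector and did not pass (adjusted p = 0.161), and it passed without shRNA vector replicate 1 (0.59, adjusted p = 0.0317) and for the mean of its 2 probe sets (0.44, adjusted p = 0.0322). Its 9 overexpression arrays lay between 7.53 and 7.74, and it differed from the vector by 0.06 ± 0.10 with ΔNp63α and by 0.00 ± 0.10 with TAp63γ. Between the hairpins and between the isoforms E2F3 differed by 0.06 each (adjusted p = 0.829 and 0.691). E2F2, the third activator (207042_at), stayed within 5.30 to 5.54 over the knockdown arrays and 5.49 to 6.03 over the overexpression arrays. It was not called in any comparison with all arrays; its largest difference was −0.21 ± 0.099 with ΔNp63α (adjusted p = 0.133), and without TAp63γ replicate 2 it was lower with ΔNp63α than with TAp63γ (−0.27, adjusted p = 0.0495; −0.18 with all arrays). Its other differences were 0.03 with shDBD, −0.07 with shTA, 0.10 between the hairpins and −0.03 with TAp63γ.

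The repressor E2F5 moved in opposite directions in the arms. E2F5, which works with RBL1 and RBL2 (221586_s_at), read 7.13 and 7.21 with the shRNA vector, 7.89 and 7.86 with shDBD, and 7.50 and 7.58 with shTA. The 3 groups did not overlap, with shTA in between. It rose by 0.70 ± 0.10 with shDBD (1.63-fold, adjusted p = 0.000147), while the difference of 0.36 ± 0.10 with shTA did not pass (adjusted p = 0.0938). The shTA difference was called with the knockdown arm fitted alone (adjusted p = 0.0187). The within-group SD of E2F5 was 0.0454 in the knockdown arm and 0.115 in the overexpression arm. It was higher with shDBD than with shTA by 0.34 ± 0.10 (adjusted p = 0.0341), a call lost without any of the 4 arrays involved: adjusted p was 0.158 and 0.11 without shDBD replicates 1 and 2, and 0.193 and 0.085 without shTA replicates 1 and 2. With the overexpression vector E2F5 read 7.91, 8.12 and 7.98, against 7.65, 7.42 and 7.63 with ΔNp63α, and 7.65, 7.48 and 7.68 with TAp63γ. Every isoform array was below every vector array. E2F5 fell by 0.44 ± 0.086 with ΔNp63α (log2 fold change −0.44, adjusted p = 0.00106) and by 0.40 ± 0.086 with TAp63γ (log2 fold change −0.40, adjusted p = 0.00118). The isoforms differed by −0.04 ± 0.086. With the mean of both E2F5 probe sets the difference between the hairpins was 0.21 and was not called (adjusted p = 0.0594). A second E2F5 probe set (222051_s_at) with a mean of 3.921 over all arrays was not called in any comparison; its differences were 0.18 with shDBD, 0.05 with ΔNp63α and −0.04 with TAp63γ.

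E2F8, the atypical repressor (219990_at), read 4.60, 4.20 and 4.70 with the overexpression vector, 5.13, 5.32 and 5.35 with ΔNp63α, and 5.10, 5.64 and 5.19 with TAp63γ. All isoform arrays were higher than all vector arrays. It rose by 0.77 ± 0.15 (1.7-fold, adjusted p = 0.00124) and by 0.81 ± 0.15 (1.75-fold, adjusted p = 0.000413). The group means were only at the 8.3, 16.9 and 18.1 percentile of genes, and with values floored at the 20th percentile the differences shrank to 0.04 and 0.06 and were not called. In the knockdown arm it lay between 4.25 and 4.81 and was not called (−0.25 ± 0.19 with shDBD, adjusted p = 0.431; −0.03 ± 0.19 with shTA; −0.22 ± 0.19 between the hairpins). Between the isoforms E2F8 differed by −0.04, with a 95% interval of −0.37 to 0.29.

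Of the pocket proteins, read from their chosen probe sets, RBL1 was the one with called differences. RBL1 (205296_at), which like MYBL2 and E2F1 is itself an E2F target, read 5.19 and 5.45 with the shRNA vector, 4.61 and 4.74 with shDBD, and 5.40 and 5.18 with shTA. The shDBD arrays were below the other 4. It fell by 0.65 ± 0.12 with shDBD (log2 fold change −0.65, 1.57-fold, adjusted p = 0.000853) and was lower with shDBD than with shTA (−0.62 ± 0.12, adjusted p = 0.00147), while shTA differed from the vector by −0.03 ± 0.12. All 6 arrays lay below the 20th percentile, and with values floored there both differences vanish (−0.01 and 0.00). RBL1 in the overexpression arm read 6.11, 6.21 and 6.03 with the vector, 5.99, 6.25 and 6.11 with ΔNp63α, and 5.57, 5.71 and 5.83 with TAp63γ. TAp63γ stood below both other groups, which overlapped. RBL1 fell by 0.41 ± 0.097 with TAp63γ (log2 fold change −0.41, adjusted p = 0.00231), differed by 0.00 ± 0.097 with ΔNp63α, and was higher with ΔNp63α than with TAp63γ by 0.42 ± 0.097 (adjusted p = 0.00275).

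RB1, the retinoblastoma protein (203132_at), read 7.41 and 8.03 with the shRNA vector, 8.36 and 8.37 with shDBD, and 8.11 and 8.13 with shTA. The treated pairs lay close together, above a vector pair that was 0.61 apart. The differences of 0.64 ± 0.26 with shDBD (adjusted p = 0.0927) and 0.40 ± 0.26 with shTA (adjusted p = 0.573) did not pass. The shDBD value passed without shRNA vector replicate 2 (0.95, adjusted p = 0.0461), without ΔNp63α replicate 3 (0.64, adjusted p = 0.0441) and with the arm fitted alone (adjusted p = 0.00454). With the control-probe covariate described further on, the shDBD value was 0.32 and was not called (adjusted p = 0.377). A second RB1 probe set (211540_s_at) gave 0.27 ± 0.11 with shDBD and 0.25 ± 0.11 with shTA. RB1 in the overexpression arm read 9.84, 9.16 and 9.50 with the vector, 9.40, 9.80 and 10.19 with ΔNp63α, and 9.26, 9.76 and 9.74 with TAp63γ, with overlap of all groups. It differed by 0.29 ± 0.21 with ΔNp63α, by 0.09 ± 0.21 with TAp63γ and by 0.21 ± 0.21 between the isoforms, and by 0.24 ± 0.26 between the hairpins, none of them called. The second probe set was called higher there with ΔNp63α, by 0.26 ± 0.088 against the vector (adjusted p = 0.04 over probe sets) and by 0.24 ± 0.088 against TAp63γ (adjusted p = 0.0463).

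RBL2, the pocket protein that prevails in resting cells (212331_at), lay between 8.60 and 8.71 in all 6 knockdown arrays. Its difference was 0.03 ± 0.24 with shDBD, with a 95% interval of −0.47 to 0.54, 0.02 with shTA and 0.01 between the hairpins. The SE and interval pool both arms, with a within-group SD of 0.0659 in the knockdown arm and 0.35 in the overexpression arm. RBL2 in the overexpression arm read 9.68, 9.08 and 9.46 with the vector, 9.25, 9.46 and 10.06 with ΔNp63α, and 9.00, 9.59 and 9.10 with TAp63γ. The groups overlapped, and no difference passed (0.18 ± 0.19 with ΔNp63α, −0.18 ± 0.19 with TAp63γ, 0.36 ± 0.19 between the isoforms, adjusted p = 0.16). The last of these passed without ΔNp63α replicate 1 (0.53, adjusted p = 0.0477) or TAp63γ replicate 2 (0.54, adjusted p = 0.0418). With the control-probe covariate described further on it was 0.05 and not called (adjusted p = 0.865). A second RBL2 probe set (212332_at) was not called in any comparison. That probe set gave 0.01 ± 0.14 between the isoforms, 0.02 with ΔNp63α, 0.01 with TAp63γ and −0.15 with shDBD.

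Counted over the 10 regulators, 5 were called with shDBD, E2F3 and E2F5 higher and RBL1, FOXM1 and MYBL2 lower, where 21.3% of all genes were called (11.1% higher and 10.2% lower). Arrays did not overlap for 7 regulators there and for 61.7% of all genes. With shTA 0 were called by limma, where 2.29% of all genes were, while 4 had an unadjusted p under 0.05 (E2F3, E2F5, FOXM1 and MYBL2). Arrays did not overlap for these 4 and RB1, as for 50.7% of all genes. The largest unadjusted p of the 4 was that of FOXM1 (0.0439 by limma), which ranked 1480 by p among 11963 genes. At least 1480 genes thus passed that loose bound. Between the hairpins 4 were called (18.4% of all genes), E2F5 higher with shDBD (9.14% of all genes) and RBL1, FOXM1 and MYBL2 lower (9.23%), and arrays did not overlap for 6 (60.3%). With ΔNp63α 3 were called (28.9% of all genes), with TAp63γ 4 (43.4%) and between the isoforms 2 (39.8%), and arrays did not overlap for 3 (36.5% of all genes), 4 (49.9%) and 2 (45.8%). These last counts are near or below the background. The medians of the 10 differences were −0.07, −0.01, −0.08, 0.20, −0.01 and 0.08 in the same order of comparisons, and those of all genes lay between −0.023 and 0.017.

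**Figure D2:**
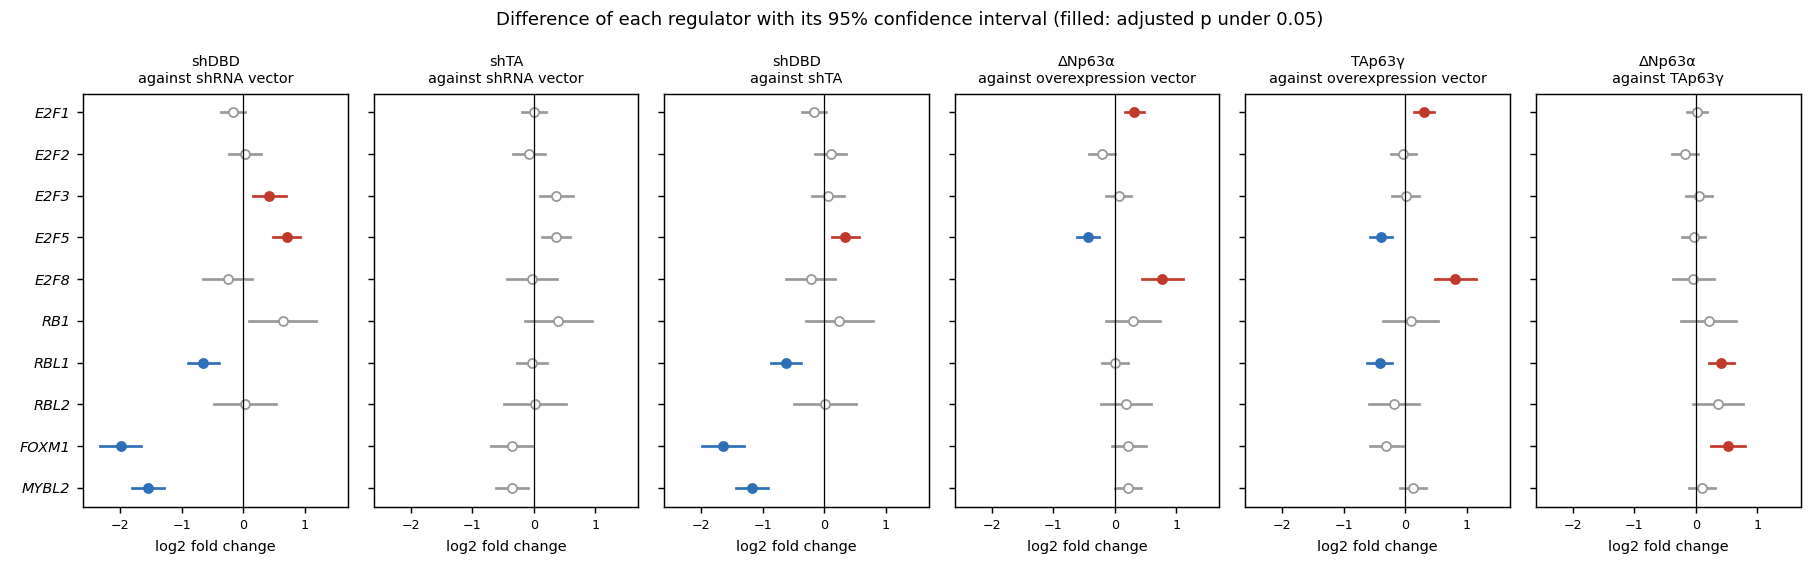
Log2 fold change of each regulator (x axis) with its 95% confidence interval in the 6 comparisons; filled points have an adjusted p under 0.05 (red higher, blue lower) and open grey points do not. FOXM1 (−1.99) and MYBL2 (−1.54) stand out with shDBD, and E2F5 is red with shDBD and blue with each isoform.

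Known target genes of these regulators were lower with shDBD. Of 35 measured FOXM1 and MYBL2 target genes of G2/M, 35 were lower with shDBD (10.2% of all genes were), with a median of −1.77 against 0.000 for all genes. Largest were HMMR, a spindle-associated hyaluronan receptor (−2.44 ± 0.2), and the checkpoint kinase TTK (−2.41 ± 0.25). With shTA 0 of the 35 were called by limma (2 with an unadjusted p under 0.05) and the median was 0.04, while FOXM1 and MYBL2 themselves stood at −0.35 and −0.36. Of 32 E2F target genes of G1/S, 29 were lower with shDBD and 0 higher, with a median of −0.90, led by the licensing factor CDC6 (−2.02 ± 0.19) and the helicase subunit MCM5 (−1.58 ± 0.13). SLBP, which binds histone mRNA, was at −0.05 ± 0.11. In the same comparison E2F1 differed by −0.16 (−0.35 with its other probe set) and E2F3 by 0.43, or 0.20 without shRNA vector replicate 2. Whether the levels of these regulators have a part in the falls was not tested. With shTA the median of the 32 was −0.12, and 8 had an unadjusted p under 0.05. At least 1480 of all 11963 genes passed that unadjusted bound with shTA. The gene called, 1 of 32 (0.853% of all genes were lower), was CDC6 (−0.77 ± 0.19, adjusted p = 0.0417), a call lost on leaving out any of shRNA vector replicates 1 and 2, shDBD replicates 1 and 2, shTA replicate 2, overexpression vector replicate 3, ΔNp63α replicate 2 or TAp63γ replicate 2, where its adjusted p reached up to 0.498. With the knockdown arm fitted alone 6 of the 32 were lower, as were 458 of all 11963 genes.

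With TAp63γ, 30 of the 35 G2/M genes were lower and 1 higher (22.8% and 20.5% of all genes), with a median of −0.72. FOXM1 stood at −0.31 and MYBL2 at 0.12 there. HMMR fell by 2.46 ± 0.16 and the kinetochore motor CENPE by 2.38 ± 0.12, on the log2 scale (log2 fold changes −2.46 and −2.38). The 5 genes that were not lower, named after their values were seen, were PTTG1, the securin, which rose by 1.18 ± 0.071, and AURKB (−0.01), CDC20 (−0.05), KIF20A (0.13) and KIF2C (−0.22), which did not pass. With ΔNp63α, 15 of 35 were higher and 1 lower (12.3% and 16.6% of all genes), with a median of 0.26, for example BUB1, a checkpoint kinase (0.88 ± 0.078). The gene that was lower, named after its value was seen, the phosphatase CDC25B (−0.53 ± 0.18, adjusted p = 0.0347), lost its call without overexpression vector replicates 2 or 3 or ΔNp63α replicates 2 or 3 (adjusted p up to 0.165). Tested directly, 31 of 35 were higher with ΔNp63α than with TAp63γ and 1 lower (19.2% and 20.6% of all genes), with a median of 1.04 and ASPM, a spindle pole protein, at 3.03 ± 0.13.

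Most G1/S genes rose with ΔNp63α, and fewer with TAp63γ. With ΔNp63α, 25 of 32 rose and 1 fell (12.3% and 16.6% of all genes), with a median of 0.58, led by GINS1 (1.40 ± 0.083) and MCM10 (1.17 ± 0.083), both parts of the replication machinery. The gene that fell, named after its value was seen, was EZH2, a histone methyltransferase (−0.33 ± 0.089, adjusted p = 0.0106), a call lost without overexpression vector replicate 2 (adjusted p = 0.0599). With TAp63γ, 15 of 32 rose and 4 fell (20.5% and 22.8% of all genes), with a median of 0.27. GINS1 rose by 1.04 ± 0.083, and the genes that fell, of which the last 3 were named after their values were seen, were RFC4, a clamp loader subunit (−0.99 ± 0.076), EZH2 (−0.84 ± 0.089), the repair gene BRCA1 (−0.68 ± 0.075), and CDC6 (−0.48 ± 0.15). The CDC6 call was lost without overexpression vector replicate 1 or TAp63γ replicate 1 (adjusted p up to 0.0906). Between the isoforms 17 were higher with ΔNp63α and 1 lower (19.2% and 20.6% of all genes); the latter, named after its value was seen, was UNG (−0.43 ± 0.078).

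**Figure D3:**
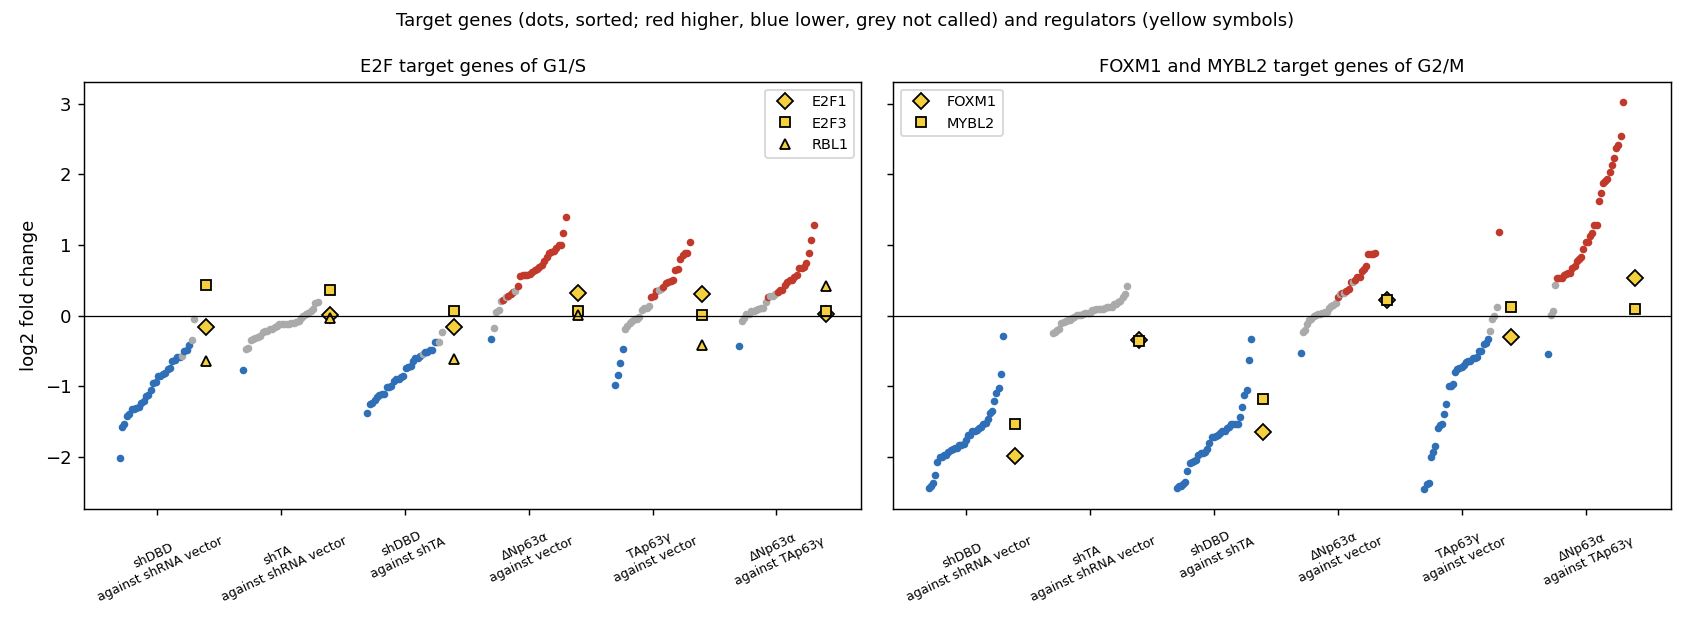
Log2 fold changes (y axis) of the 32 E2F target genes of G1/S (left) and the 35 FOXM1 and MYBL2 target genes of G2/M (right) in the 6 comparisons, sorted within each; red dots are higher and blue dots lower at an adjusted p under 0.05, grey dots are not called, and yellow symbols are the regulators. With TAp63γ the G2/M genes reach down to −2.46, FOXM1 stands at −0.31 and MYBL2 at 0.12.

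Among the partners, 8 of 12 listed genes were measured. Of all genes, 20.5% were higher and 22.8% lower with TAp63γ, and 12.3% and 16.6% with ΔNp63α, so counts over 8 genes set the partners apart in neither comparison. With TAp63γ, MYBL1 (A-MYB, the paralog of MYBL2) fell by 1.88 ± 0.23 (log2 fold change −1.88, adjusted p = 5.77e-06), the E2F dimer partner TFDP2 fell by 0.50 ± 0.075 (log2 fold change −0.50), and LIN37, a subunit of MuvB, rose by 1.25 ± 0.15 (adjusted p = 5.52e-06). The TAp63γ mean of MYBL1, 5.389, lies under the 20th percentile of 5.47, so its level there was not shown to be above background and the size of the fall is uncertain. MYB (0.30), with group means under the same percentile, was also called higher and the histone-binding subunit RBBP4 (−0.22) lower, so that 2 rose and 3 fell. With ΔNp63α, 1 rose (MYB, 0.33) and 3 fell, the repressor E2F6 (−0.33 ± 0.084), RBBP4 (−0.26) and TFDP2 (−0.22). MYBL1 was at 0.09 ± 0.23 there and was higher with ΔNp63α than with TAp63γ by 1.98 ± 0.23 (adjusted p = 6.1e-06). Calls of RBBP4 and TFDP2 against the vector with ΔNp63α, and of RBBP4 with TAp63γ, were lost in 6, 14 and 13 of 25 alternatives, and the MYB calls with values floored or with the mean of its probe sets. With shDBD 2 of 8 rose (11.1% of all genes), E2F6 (0.39 ± 0.1) and LIN37 (0.57 ± 0.19). The E2F6 call was lost without shRNA vector replicate 1 or shDBD replicate 1 (adjusted p up to 0.132), and the LIN37 call without those or shDBD replicate 2, shTA replicate 1 or shTA replicate 2 (adjusted p up to 0.312). With shTA 0 of 8 were called by limma (2 with an unadjusted p under 0.05, as at least 1480 of 11963 genes had).

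Kinases and inhibitors that act on the pocket proteins were read from 14 genes. With shDBD 3 rose and 4 fell (11.1% and 10.2% of all genes), led by the inhibitor CDKN1C (2.51 ± 0.12) and the cyclin CCNA2 (−1.83 ± 0.12); without shRNA vector replicate 2, 1 fell. With shTA 1 rose (1.44% of all genes), CDKN1C (1.26 ± 0.12), and 0 fell. With ΔNp63α 6 rose and 1 fell (12.3% and 16.6% of all genes), led by the cyclin CCNE2 (1.58 ± 0.26) and the kinase CDK2 (0.84 ± 0.083), while the inhibitor CDKN1A was at −0.05 ± 0.13. The gene that fell, named after its value was seen, was CDK4, a cyclin D partner (−0.57 ± 0.17), a call lost without overexpression vector replicate 2 or ΔNp63α replicate 3 (adjusted p up to 0.0813). With TAp63γ 9 rose and 2 fell (20.5% and 22.8% of all genes), led by CDKN1A and CDKN1C (1.60 ± 0.13 and 1.60 ± 0.10). Between the isoforms 3 were higher and 6 lower with ΔNp63α (19.2% and 20.6% of all genes), led by CDKN1A (−1.65 ± 0.13) and the cyclin CCND2 (−1.19 ± 0.095).

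As a description of likeness, each regulator was set against all other genes over the 15 arrays, after the mean of its arm was subtracted. Nearest to FOXM1 were TACC3, CDCA8 and PSRC1 (Pearson r of 0.982, 0.981 and 0.975), and nearest to MYBL2 were CDCA3, CDC20 and AURKB (0.975, 0.967 and 0.965). The points share arrays, arms and the large shDBD differences, so these values are a description. CDC20 and AURKB were also among the G2/M genes not lower with TAp63γ. FOXM1 and MYBL2 stood at 0.96 to each other. Nearest to RBL1 were HMGB2, CACYBP and TOP2A (0.931, 0.927 and 0.926), to E2F8 APOBEC3F, PRDX1 and PCNA (0.917, 0.904 and 0.896), and to E2F1 CDK2AP1, TGFA and PLS3 (0.927, 0.913 and 0.904). Nearest to E2F5 were GHITM, C1RL and PDSS2 (0.927, 0.914 and 0.913), to RB1 FBXO38, OSTM1 and SGMS1 (0.921, 0.918 and 0.912), and to RBL2 RPLP2, ZCCHC10 and RAP1A (0.94, 0.935 and 0.931). The highest values of E2F2 and E2F3 were lower, 0.845 with ERCC2 and 0.844 with MEIS1.

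Replicates of the overexpression arm spread along a pattern shared by many genes, FOXM1, MYBL2, RB1 and RBL2 among them: over these 9 arrays the deviations of 1614 of 11962 other genes correlated with those of RBL2 at an absolute r above 0.9. Within groups, RB1 and RBL2 had residual SDs of 0.342 and 0.35, above those of 98.5% and 98.7% of genes, and FOXM1 had 0.217, against a median of 0.113. In every group the array with the highest RBL2 value had the lowest FOXM1 and MYBL2 values: vector replicate 1, ΔNp63α replicate 3 and TAp63γ replicate 2. The arrays with the lowest RBL2 value had the highest FOXM1 and MYBL2 values: vector replicate 2, ΔNp63α replicate 1 and TAp63γ replicate 1. Over these 9 arrays the deviations of RBL2, FOXM1 and MYBL2 correlated with the mean of the G2/M genes at −0.05, −0.12 and −0.10. Their correlations with the mean of the G1/S genes were −0.72, 0.61 and 0.63, and with the actin control difference described next 0.83, −0.90 and −0.90. The same high-RBL2 arrays had the largest difference of the 3′ and 5′ actin control probe sets of their group, a measure that rises with RNA breakdown or short labelling and whose part in these values was not tested: 0.23 against 0.15 and 0.12 with the vector, 0.23 against 0.12 and 0.13 with ΔNp63α, and 0.14 against 0.01 and 0.09 with TAp63γ.

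The control difference also varied between groups, with −0.09 and −0.08 in the shRNA vector arrays, 0.09 and 0.05 with shDBD and 0.00 and 0.20 with shTA. A fit with the mean of the actin and GAPDH differences as a covariate, chosen after seeing the data, left FOXM1 and MYBL2 lower with shDBD (−1.76, adjusted p = 4.63e-08, and −1.37, adjusted p = 9.17e-08). It took RB1 with shDBD from 0.64 to 0.32 (adjusted p = 0.377). With shTA it took FOXM1 from −0.35 to −0.07 and MYBL2 from −0.36 to −0.16, and RB1 from 0.40 to 0.01. The fit used the same slope in both arms. Both shRNA vector arrays had the lowest actin differences of the knockdown arm, so treatment and control difference are hard to separate there. Between the shTA arrays the actin difference went from 0.00 to 0.20. FOXM1 read 9.00 and 8.97 in them, MYBL2 9.68 in both, and RB1 8.11 and 8.13. Whether RNA quality has a part in the shTA differences was not tested. FOXM1 was called in each overexpression comparison in that fit: 0.27 with ΔNp63α (adjusted p = 0.0385), −0.48 with TAp63γ (adjusted p = 0.00112) and 0.74 between the isoforms (adjusted p = 4.94e-05). MYBL2 was then called with ΔNp63α (0.25, adjusted p = 0.0184) and between the isoforms (0.25, adjusted p = 0.0424) and stood at −0.00 with TAp63γ.

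**Figure D4:**
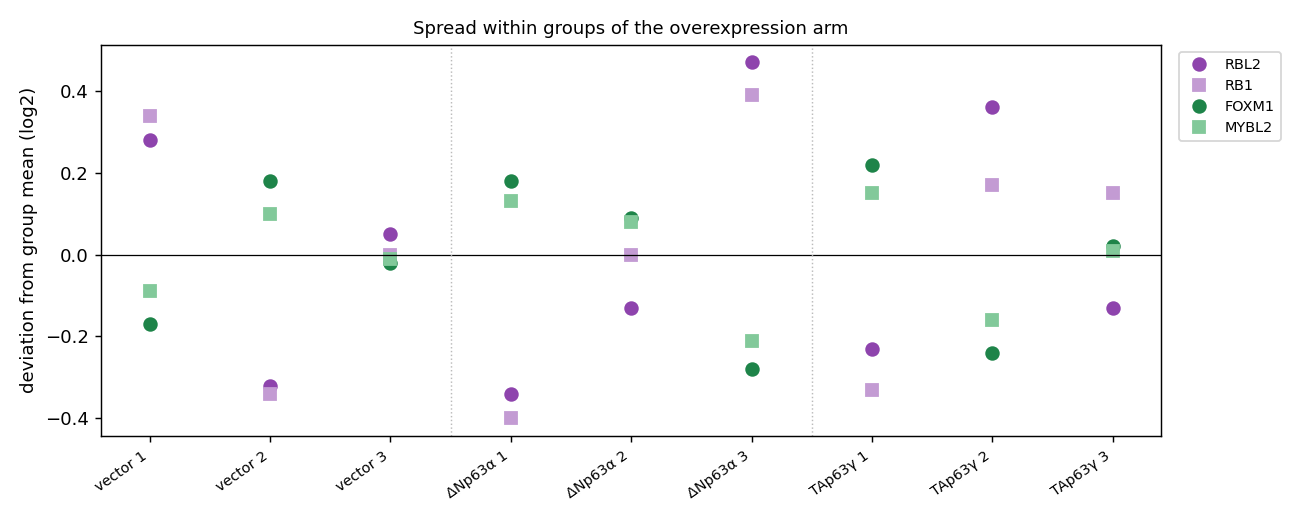
Deviation of RBL2, RB1, FOXM1 and MYBL2 from their group mean (y axis, log2) in the 9 arrays of the overexpression arm, by group and replicate. RBL2 is highest and FOXM1 lowest in vector replicate 1, ΔNp63α replicate 3 and TAp63γ replicate 2.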

How the data were processed

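The authors deposited log2 levels for each probe set, which per the submitters' processing notes are RMA values. Which RMA version was run, and whether on both arms jointly, is not given in the sources used here. RMA equalizes array distributions, so a shift of most transcripts would not be seen. Names for the 22277 probe sets came from GEO's platform annotation: 19064 had 1 symbol, 1043 several, 2108 were not listed and 62 were controls. 19052 of the first matched a current RefSeq gene by Entrez identifier (0 symbols changed). This gave 11963 genes, 4310 with more than 1 probe set.

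limma 3.58.1 in R 4.3.3 fitted group means to the 15 arrays together (trended variance, residual degrees of freedom 9, prior 5.87), with two-sided tests adjusted over all genes. The fit was tested on simulated data with independent normal noise and the same SD of a gene in all arrays. That setting lacks the shared pattern and the unequal spread of the arms seen here, so it cannot show how the fit handles them. The number of arrays limits the precision. The regulators, lists and tests were chosen with earlier results of these data known. All 10 regulators are given in every comparison. Called partner genes may be named, and of other lists the 2 called genes with the largest change and the uncalled gene with the smallest; genes named after their values were seen are marked as such. Pathway lists leave out the regulators. Alternatives were a replicate block, quantile and cyclic loess normalization, arms fitted separately, no trend, the mean of all probe sets, all probe sets fitted, low genes left out, floored values, a control-probe covariate and each array left out. The targeted transcript was not analysed here. Figures were drawn with matplotlib 3.10.9.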

Additional observations from a re-analysis of the deposited data

How the results depend on the processing

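The 60 differences of the regulators were recomputed under 25 alternatives, 15 of them leaving out 1 array. Of 18 called differences, 12 kept their call in every alternative that tested them, among them all calls of FOXM1, MYBL2 and E2F1. RBL1 between the hairpins went to 0.00 with values floored, by construction, since all its values lie under the floor. With arrays left out in turn, the regulators called ranged from 4 to 6 with shDBD, 0 to 1 with shTA, 3 to 4 between the hairpins, 3 to 5 with ΔNp63α, 4 to 5 with TAp63γ and 2 to 4 between the isoforms. All genes called ranged from 1650 to 2968 with shDBD (lowest without shRNA vector replicate 1), 87 to 472 with shTA (274 with all arrays) and 1348 to 2588 between the hairpins. Without an array of the knockdown arm the lone array left is assumed to vary like the other groups. In the overexpression arm all genes called ranged from 2880 to 3574 with ΔNp63α, 4674 to 5515 with TAp63γ and 4069 to 4857 between the isoforms. With each arm fitted separately, and so with its own spread, 1064 genes and 3 regulators were called with shTA and 3359 genes between the hairpins. With the mean of all probe sets, 1 regulator was called with shTA. With the control-probe covariate, 5 regulators were called with ΔNp63α (3 in the main fit, where 28.9% of all genes were called). With genes below the 20th percentile left out, 7 regulators were tested, and 2 were called with TAp63γ (43.4% of all genes in the main fit) and 1 between the isoforms (39.8%). The cause of these shifts was not tested, except that fewer regulators were tested in the last.

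Deviations of same-numbered arrays correlated at 0.00 to 0.07 for knockdown arrays and at −0.63 to 0.48 for overexpression arrays. Differently numbered overexpression arrays correlated at −0.73 to 0.68. In the knockdown arm the deviations of the 2 arrays of a group are equal and opposite. These values showed no pairing by replicate number and cannot exclude it. With the replicate number as a block, 150 genes were called with shTA in place of 274, and the adjusted p of E2F5 between the hairpins was 0.0683; no other regulator changed its call. Arrays under the 20th percentile limit what E2F2, E2F8 and RBL1 can show.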
